A study of Mus musculus with 6 samples.

Results

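The opened sites are 1011 chromatin sites of mouse bone marrow-derived macrophages (BMDMs) whose accessibility was at least 2-fold higher in the library treated with latrunculin A and in the library treated with MCSF, both in the presence of IL-4. They were taken from a deposited table of 578591 sites, of which 534067 lie on chromosomes 1 to 19 and 33476 of those had a mean signal of at least 3.2 over the 6 libraries. A site was chosen when, with 0.1 added to each value, LatA + IL-4 over DMSO + IL-4 and MCSF + IL-4 over IL-4 were both at least 2. The sites were thus selected on measured values, so those 2 ratios describe the selection and support nothing further.

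Accessible sites are stretches of DNA free of tightly packed nucleosomes, mostly promoters and enhancers, where transcription factors can bind. Latrunculin A binds actin monomers and blocks actin polymerization. MCSF, also called CSF1, is the growth factor that macrophages sense through the receptor kinase CSF1R and need for survival. IL-4 is a type 2 cytokine that acts through STAT6 and drives the alternative, tissue repair program of macrophages.

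ATAC-seq reads out accessibility through a transposase that inserts sequencing adapters into open DNA. All cells were wild-type BMDMs grown out of C57BL/6J bone marrow (strain C57BL/6 in the labels) in medium with 30% L929-conditioned medium, so the controls had also been raised on that supplement. The 6 groups, each with 1 library, were Untreated, IL-4 (20 ng/ml for 24 h), DMSO (the vehicle of latrunculin A), DMSO + IL-4, LatA + IL-4 (latrunculin A at 1 µM) and MCSF + IL-4 (MCSF at 100 ng/ml). Untreated and DMSO, which received no IL-4, are called the resting libraries here. With 1 library per group there was no replicate error and no test between conditions, and every ratio below compares 2 libraries. In cells measured in bulk, a larger share of cells with an open site and a more open site in every cell cannot be told apart. The labelled cell type was not checked against marker genes, since gene positions of the build of these files were not used here.

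Reads in sites ranged from 12387332 in DMSO + IL-4 to 19889902 in Untreated. The deposited signal is CPM after a further scaling of the libraries by the authors, and a signal of 3.2 stood for 39.9 reads in DMSO + IL-4 and 66.8 reads in Untreated. The 20 sites with the most reads took 13.5% of reads with latrunculin A and 15.2% with MCSF, against 19.5% to 22.2% in the other 4 libraries. The median site among the 33476 also sat higher in the treated libraries, by 0.54 on the log2 scale with latrunculin A and 0.55 with MCSF. The part of this common shift in the choice of the sites was not tested, and with the shift and its trend with mean signal removed, 71 sites met the conditions, all among the 1011.

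Of the 33476 sites, 4232 (12.6%) were at least 2-fold higher with latrunculin A and 4891 (14.6%) with MCSF. The 1011 sites past 2-fold with both were 3.02% of all sites compared. They made up 23.9% of the latrunculin A list and 20.7% of the MCSF list. Among sites outside the latrunculin A list, 13.3% were at least 2-fold higher with MCSF, and among sites outside the MCSF list, 11.3% were at least 2-fold higher with latrunculin A. The 2 ratios share no library, although all 6 libraries enter the floor on the mean.

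Most of the opened sites lay close to the threshold. The median log2 ratio was 1.20 with latrunculin A (range 1.00 to 5.25) and 1.20 with MCSF (range 1.00 to 5.85). By the smaller of the 2 ratios, 885 sites (87.5%) stayed under 2.5-fold, 45 reached 3-fold and 11 reached 4-fold. Latrunculin A gave the larger ratio at 486 sites and MCSF at 525, and at 861 sites (85.2%) the 2 log2 ratios were within 0.5 of each other. The read ratio is the ratio of reads after division by the deposited library sizes, with nothing added. Each site had an exact 95% interval of the read ratio wholly above 1 for both treatments. At 632 sites (62.5%) both intervals lay above 1.5, and at 70 (6.92%) both lay above 2. These intervals cover counting error only. They are taken on the same ratios that the rule required to be at least 2, so lower bounds above 1 were largely set by the choice of sites.

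**Figure D1:**
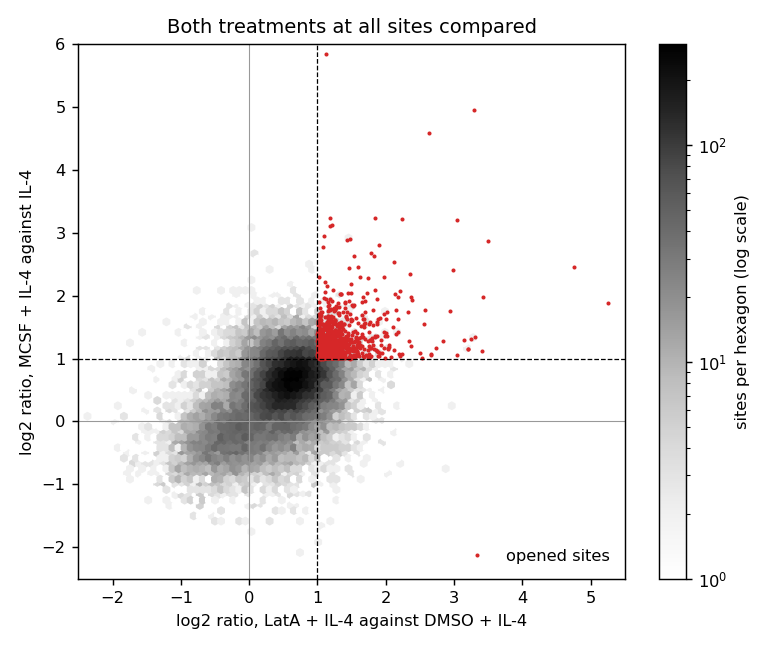
The log2 ratio of LatA + IL-4 against DMSO + IL-4 (x axis) is plotted against that of MCSF + IL-4 against IL-4 (y axis), with 0.1 added to each signal. Grey hexagons count all 33476 sites on a log scale, red points are the 1011 opened sites, and dashed lines mark 2-fold. The bulk of sites is centred near 0.54 and 0.55, and most red points sit just past the dashed lines.

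At the median opened site the signal was 3.26 in Untreated and 4.14 in DMSO, 2.92 in IL-4 and 3.13 in DMSO + IL-4, and 7.65 with latrunculin A and 7.36 with MCSF. The treated libraries were thus high and the 2 IL-4 libraries that served as their controls were the lowest. Other sites, weighted to the same distribution of mean signal over 7 bins, had medians of 3.69, 4.37, 4.20, 4.41, 6.28 and 5.77 in the same order. The opened sites therefore differed from sites of equal mean signal in both directions, with less signal in both IL-4 controls and more in the treated ones. These 4 libraries entered the rule.

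A rank within each library does not depend on how libraries are scaled, but in the 4 libraries of the rule it is fixed in part by the choice of sites. Among the 33476 sites, the median opened site stood at percentile 13.0 in IL-4 and 12.9 in DMSO + IL-4. It stood at percentile 32.6 in Untreated and 37.1 in DMSO, and at 53.0 with latrunculin A and 55.3 with MCSF. These ranks are among all sites compared and not among sites of equal signal. In Untreated and DMSO the medians of the latter, 3.69 and 4.37, were not far above the 3.26 and 4.14 of the opened sites.

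**Figure D2:**
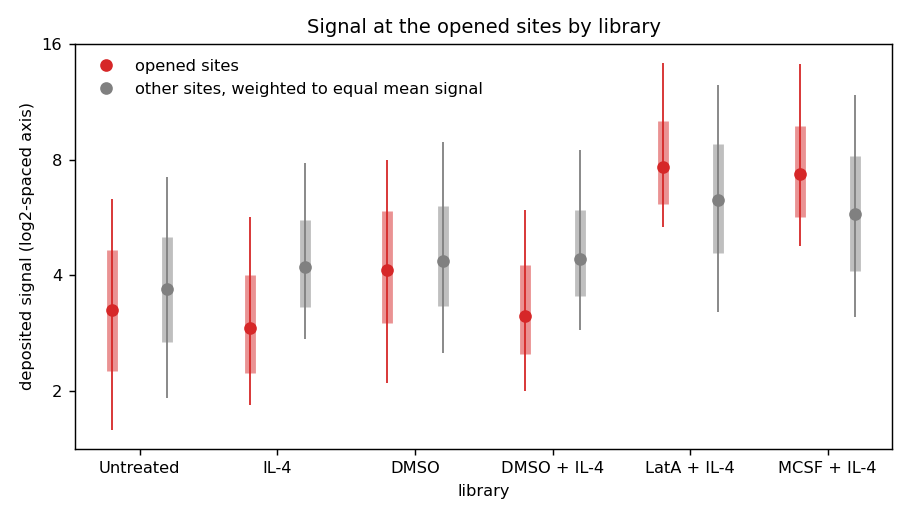
Deposited signal (y axis, log2-spaced) in each of the 6 libraries (x axis) for the opened sites (red) and for other sites weighted to equal mean signal (grey). Points are medians, thick bars span the middle 50% and thin lines the 10th to 90th percentile of sites. The red medians are 2.92 in IL-4 and 3.13 in DMSO + IL-4, and 7.65 and 7.36 in the treated libraries.

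The name "opened" covers gains at sites that were mostly accessible already. A deposited peak overlapped 96.4% of the opened sites in IL-4 and 96.4% in DMSO + IL-4, against 98.6% and 98.0% of other sites of equal signal. In the resting libraries the share was 95.2% in Untreated and 97.3% in DMSO, against 97.2% and 97.4% of other sites of equal signal. All 1011 sites had a peak in both treated libraries. A peak in each of the 6 libraries was found at 904 sites (89.4%, against 91.0% of other sites of equal signal). A peak was lacking in both IL-4 controls at 11 opened sites (1.09%, 0.544 to 1.94%) and at 0.497% of other sites of equal signal. Peaks in the 2 treated libraries and in none of the other 4 were found at 1 opened site (0.0989%, 0.00250 to 0.550%), against 0.0391% of other sites of equal signal.

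The peak caller's fold enrichment sets a peak against the background of its own library, so it does not use the scaling between libraries, although it comes from the same reads as the rule. Its median at the opened sites went from 7.40 in IL-4 to 12.0 with MCSF, and from 7.45 in DMSO + IL-4 to 12.9 with latrunculin A. Other sites of equal signal went from 9.10 to 10.7 and from 9.38 to 12.0. Of the 975 opened sites with a peak in both LatA + IL-4 and DMSO + IL-4, 935 (95.9%) had the higher enrichment with latrunculin A, against 74.0% of other sites of equal signal, with a median log2 ratio of 0.69 against 0.24 at other sites. Of the 975 with a peak in both MCSF + IL-4 and IL-4, 924 (94.8%) had the higher enrichment with MCSF, against 65.6%, with a median log2 ratio of 0.65 against 0.16. On this scale the gains were smaller than on the deposited signal.

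The 2 treated libraries mostly exceeded the resting libraries as well. Both lay above each of the other 4 libraries at 917 opened sites (90.7%), against 57.5% of all sites compared. LatA + IL-4 was at least 2-fold above DMSO at 423 opened sites (41.8%, background 18.1%). MCSF + IL-4 was at least 2-fold above Untreated at 579 (57.3%, background 30.6%). The median log2 ratio was 0.87 for LatA + IL-4 against DMSO and 1.13 for MCSF + IL-4 against Untreated, while other sites of equal signal had 0.48 and 0.65. Sites past 2-fold with latrunculin A only had 0.78 for the former, and those with MCSF only had 1.36 for the latter, so such gains over the resting libraries were not particular to the opened sites. These ratios share the treated libraries with the rule and are a description.

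At the median, the signal of the opened sites was slightly lower with IL-4 than without it. IL-4 against Untreated had a median log2 ratio of -0.13 (order-statistic 95% interval -0.19 to -0.07), and other sites of equal signal had 0.17. With the controls of the rule crossed it was -0.02, and -0.02 at 1.5-fold. For IL-4 against Untreated, sites past 2-fold with latrunculin A only had 0.11. Those with MCSF only, which share the IL-4 control, had 0.14. DMSO + IL-4 against DMSO had -0.38 (-0.43 to -0.33), and other sites had -0.01. Sites past 2-fold with latrunculin A only, which share that control, had -0.44, and sites past 2-fold with MCSF only had 0.13. Both IL-4 libraries are denominators of the rule, so sites low in them were favoured by the choice. At least 2-fold lower values with IL-4 were found at 67 opened sites without vehicle (6.63%, background 1.14%) and at 98 in DMSO (9.69%, background 2.00%). At least 2-fold higher values were found at 88 without vehicle (8.70%, background 9.96%) and at 36 in DMSO (3.56%, background 6.24%).

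DMSO against Untreated is the ratio in which neither library served as a numerator or denominator of the rule. Its median was 0.36 (0.34 to 0.39) at the opened sites and 0.32 at other sites of equal signal, so the vehicle library stood above Untreated at both. With the trend of all sites with mean signal removed, the 71 sites left had a median of -0.09. It was at least 2-fold higher at 57 opened sites (5.64%, background 2.12%) and at least 2-fold lower at 15 (1.48%, background 0.684%). The opened sites were therefore over the background on both sides. Across the 4 libraries without latrunculin A or MCSF, the highest and lowest signal of an opened site were a median of 0.85 apart on the log2 scale (0.81 to 0.88), against 0.66 at other sites of equal signal. Of these 4 libraries, IL-4 and DMSO + IL-4 entered the rule, so this spread is not free of it.

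Several patterns across the 6 libraries met the same rule. At 656 opened sites (64.9%) the 4 libraries without latrunculin A or MCSF were within 2-fold of each other, as they were at 79.3% of all sites compared and 77.8% of other sites of equal signal. At 196 sites (19.4%) the lower of the 2 treated libraries was still at least 2-fold above the highest of the other 4, a condition that only sites meeting the rule can meet (0.585% of all sites compared). The median signals of these 196 sites were 2.20 in Untreated, 2.83 in DMSO, 3.05 with IL-4 alone and 3.13 in DMSO + IL-4, then 7.92 with latrunculin A and 8.16 with MCSF.

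At 92 sites (9.10%, background 33.5%) a resting library was at or above the lower treated library, so the signal was low in the IL-4 controls and not high in both treated libraries. Their median signals were 3.95 in Untreated and 5.66 in DMSO, 2.03 in IL-4 and 2.65 in DMSO + IL-4, and 6.52 and 5.24 with latrunculin A and MCSF. The median DMSO signal thus exceeded the median MCSF + IL-4 signal there. At 11 of the 92 sites both resting libraries were at or above the lower treated library (1.09%, background 18.4%).

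A small group rose with IL-4 in both pairs and was higher again with each treatment. These 21 sites (2.08%, background 4.55%) had median signals of 0.959 in Untreated and 0.992 in DMSO, 3.88 in IL-4 and 3.21 in DMSO + IL-4, and 8.33 with latrunculin A and 8.65 with MCSF. The 17 sites that fell at least 2-fold under IL-4 in both pairs (1.68%, background 0.197%) went the other way. Their medians were 4.79 and 5.19 in Untreated and DMSO, 1.65 in IL-4 with slightly less in DMSO + IL-4, and 6.01 and 5.84 in the treated libraries, above the resting level.

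Many of the calls did not hold against both IL-4 controls. Most opened sites lay close to the threshold, and the part of this in the loss was not tested. When each treated library was set against both IL-4 and DMSO + IL-4, 533 of the 1011 sites (52.7%, and 1.59% of all sites compared) were at least 2-fold higher in all 4 ratios. Their median signals were 2.92 in IL-4 and 2.97 in DMSO + IL-4 against 7.72 and 7.74 with latrunculin A and MCSF. Over all 1011 sites the median log2 ratio was 1.33 for LatA + IL-4 against IL-4 and 1.12 for MCSF + IL-4 against DMSO + IL-4, where other sites of equal signal had 0.64 and 0.39. The lowest of these ratios were -0.91 and -0.33, so at some sites the direction also turned with the control.

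The opened sites were mostly of low to medium signal. Their mean signal over the 6 libraries ran from 3.2 to 82.8 with a median of 4.65. They made up 3.74% of sites with a mean of 3.2 to 4, 3.80% of those of 4 to 5, 3.72% of those of 5 to 6.4, 2.38% of those of 6.4 to 8 and 2.02% of those of 8 to 12.8. The share was lowest at 12.8 to 25.6, with 14 of 2609 sites (0.537%, exact 95% interval 0.294 to 0.899%). At 25.6 and over it was 16 of 846 sites (1.89%, 1.08 to 3.05%). Within the latrunculin A list the share also past 2-fold with MCSF was 26.0% in the lowest bin, 11.7% at 12.8 to 25.6 and 29.1% at 25.6 and over, against 15.2%, 5.62% and 5.31% of the remaining sites of the same bins.

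**Figure D3:**
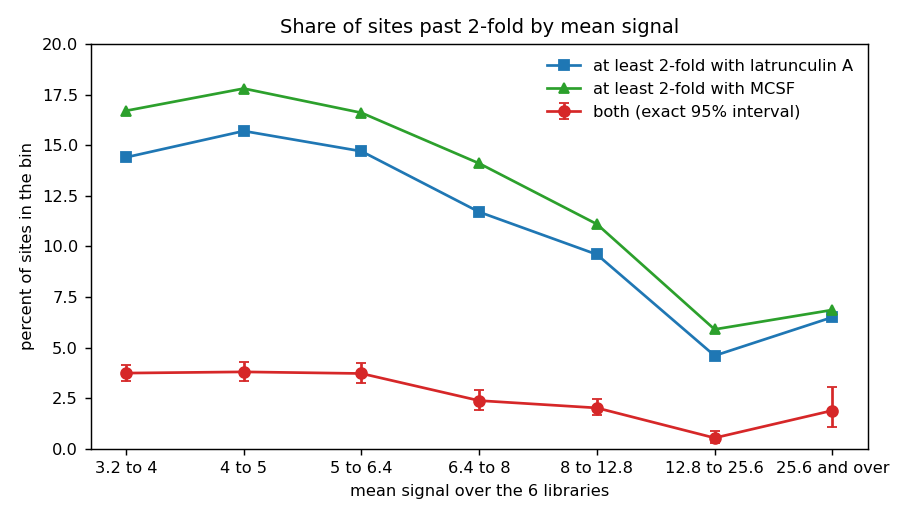
Percent of sites at least 2-fold higher with latrunculin A (squares), with MCSF (triangles) and with both (circles, with exact 95% intervals) in 7 bins of mean signal (x axis). The share with both is between 3.72% and 3.80% in the 3 lowest bins and 0.537% at 12.8 to 25.6.

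The 8 opened sites with the largest smaller ratio were irregular across the untreated and control libraries. Positions are in the mm9 build, counted from 1, and the sites are numbered by rank. Site 1, chr4:144549635-144550370, had a signal of 2.78 in Untreated and 2.33 in DMSO, 0.0636 in IL-4 and 1.20 in DMSO + IL-4, and 12.7 with latrunculin A and 4.93 with MCSF. The IL-4 value was 1 read, against 58 reads in Untreated. The read ratio was 10.6 (6.24 to 19.3) with latrunculin A, and 77.6 (13.4 to 3110) with MCSF over that single read. Site 2, chr10:20237810-20238496, had 0.144 in Untreated and 5.25 in DMSO, 0.699 in IL-4 and 0.882 in DMSO + IL-4, and 7.99 with latrunculin A and 7.28 with MCSF. Its read ratios were 9.06 (4.88 to 18.7) and 10.4 (5.57 to 21.6), yet the DMSO library, with 90 reads, stood near the treated ones.

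Site 3, chr18:78213008-78214397, had 4.84 in Untreated and 6.47 in DMSO, 1.27 in IL-4 and 0.882 in DMSO + IL-4, and 11.0 with latrunculin A and 9.86 with MCSF. It was lower in both IL-4 controls than in both resting libraries, and highest in the treated libraries. Site 4, chr10:70422910-70423751, had 5.08 in Untreated and 1.63 in DMSO, 0.191 in IL-4 and 0.722 in DMSO + IL-4, and 4.99 with latrunculin A and 6.90 with MCSF. Site 5, chr3:146334285-146335404, had 7.14 in Untreated and 1.81 in DMSO, 1.34 in IL-4 and 0.0802 in DMSO + IL-4, and 4.78 with latrunculin A and 7.74 with MCSF. At sites 4 and 5 the Untreated library was above LatA + IL-4, so a gain with latrunculin A was seen only over the IL-4 and DMSO libraries. The DMSO + IL-4 value of site 5 was 1 read, and its latrunculin A read ratio of 59.6 had an interval of 10.4 to 2389.

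Site 6, chr13:113485444-113486465, had 1.58 in Untreated and 6.82 in DMSO, 2.03 in IL-4 and 0.962 in DMSO + IL-4, and 8.33 with latrunculin A and 11.2 with MCSF. Site 7, chr6:108309032-108309859, had 8.34 in Untreated and 7.41 in DMSO, 1.46 in IL-4 and 3.37 in DMSO + IL-4, and 17.6 with latrunculin A and 7.81 with MCSF. Site 8, chr3:132284550-132285182, had 4.12 in Untreated and 4.72 in DMSO, 0.254 in IL-4 and 1.68 in DMSO + IL-4, and 8.33 with latrunculin A and 3.19 with MCSF. At sites 7 and 8 MCSF + IL-4 lay below the Untreated library, and its ratio rested on the low value in IL-4. Of the 45 opened sites at or above 3-fold in both, 11 had a resting library at or above the lower treated library and 5 had 3 reads or fewer in IL-4 or DMSO + IL-4, while over all 1011 sites those counts were 92 and 6. A resting library stood that high at 33.5% of all sites compared. Of the same 45, 19 had the lower treated library at least 2-fold above the highest of the other 4. At least 2-fold above both IL-4 controls were 40 of the 45. Over all 1011 sites those counts were 196 and 533.

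A clear step between the 2 treated libraries and all 4 others was found at opened sites other than the 8 above. Ranked by the excess of the lower treated library over the highest other library, a ranking set up once the values were known, the leading site was chr2:155507283-155508060. Its signal was 1.20 in Untreated and 1.28 in DMSO, 1.46 in IL-4 and 1.52 in DMSO + IL-4, and 7.38 with latrunculin A and 6.45 with MCSF. The read ratio was 4.84 (2.96 to 8.35) with latrunculin A and 4.41 (2.76 to 7.33) with MCSF, and the 4 other libraries held between 19 and 25 reads.

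The next site was chr19:40582753-40583560, with 1.25 in Untreated and 1.87 in DMSO, 2.23 in IL-4 and 1.92 in DMSO + IL-4, and 8.81 with latrunculin A and 9.33 with MCSF. The third was chr8:40721094-40722635, with 1.34, 1.69, 2.29 and 1.92 in those 4 libraries, 8.13 with latrunculin A and 7.89 with MCSF. With 0.1 added, the lower treated library stood 4.03-fold, 3.83-fold and 3.34-fold above the highest other library at these 3 sites. The ranking itself sets these gaps. By the smaller of the 2 ratios the sites were at 4.19-fold, 4.06-fold and 3.34-fold, so they are also among the 45 opened sites at or above 3-fold.

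**Figure D4:**
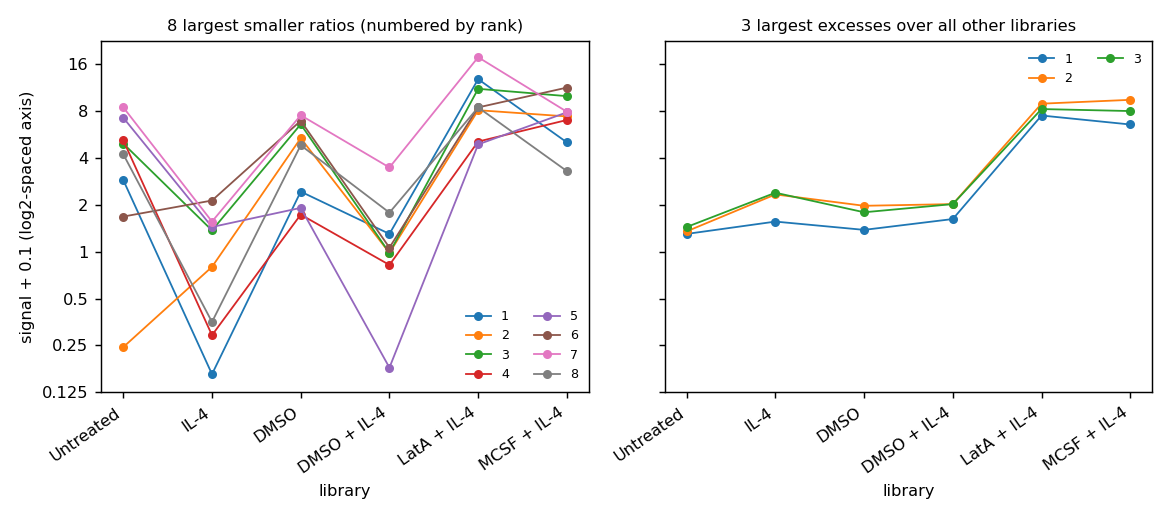
Signal with 0.1 added (y axis, log2-spaced) in the 6 libraries (x axis), 1 line per site. The left panel shows the 8 sites with the largest smaller ratio, numbered by rank, whose values swing among the 4 libraries without latrunculin A or MCSF. The right panel shows the 3 sites with the largest excess over all other libraries, whose signal, before 0.1 is added, stays between 1.20 and 2.29 in those 4 and between 6.45 and 9.33 in the treated ones.

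The 5 strongest opened sites had read ratios of 2.00 to 3.18. The site of highest mean signal was chr4:16090522-16091500, with 56.5 in Untreated and 72.7 in DMSO, 51.2 in IL-4 and 62.1 in DMSO + IL-4, and 136 with latrunculin A and 119 with MCSF. Its read ratio was 2.19 (2.01 to 2.38) with latrunculin A and 2.32 (2.13 to 2.53) with MCSF. The second, chr4:141549610-141550470, had 48.4 in Untreated and 49.1 in DMSO, 47.0 in IL-4 and 59.1 in DMSO + IL-4, and 136 with latrunculin A and 150 with MCSF, with read ratios of 2.30 (2.11 to 2.51) and 3.18 (2.92 to 3.47). The 4 other libraries lay close together at that site and well under the treated ones.

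The next was chr8:125332411-125334080, with 28.1 in Untreated and 54.2 in DMSO, 46.7 in IL-4 and 46.7 in DMSO + IL-4, and 127 with latrunculin A and 121 with MCSF. Its read ratios were 2.72 (2.48 to 2.99) and 2.59 (2.37 to 2.83). At each of the 16 opened sites with a mean of at least 25.6, both treated libraries exceeded the other 4 and both intervals lay above 1.5. At that signal the intervals are narrow, so the latter was largely set by the rule's ratio of at least 2. Over these 16 sites the log2 ratios ran from 1.00 to 1.69 with latrunculin A and from 1.03 to 1.74 with MCSF.

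The next 2 strongest sites were neighbours on chromosome 1 with nearly the same reads in every library. The site chr1:173001743-173003334 had 618 reads in Untreated and 593 in DMSO, 687 in IL-4 and 640 in DMSO + IL-4, and 1504 with latrunculin A and 1516 with MCSF. The site chr1:173009374-173010950 had 616, 588, 688, 634, 1507 and 1519 reads in the same libraries, within 0.946% of the former in each. A site 7821 bases before the former, chr1:172993922-172995702, had 589, 598, 675, 622, 1457 and 1473 reads and was within 4.69% in each library, but did not meet the conditions. The aligner was allowed to report a read at several places, so these sites may share reads, which was not tested. No other opened site with a mean of at least 12.8 had a site within 1 Mb that differed by at most 5% in all 6 libraries.

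Of the 3 opened sites with the largest rise under IL-4, 2 had little signal in both resting libraries. The site chr3:121833671-121834194 had 0.288 in Untreated and 0.408 in DMSO, 3.37 in IL-4 and 2.65 in DMSO + IL-4, and 6.01 with latrunculin A and 9.03 with MCSF. The site chr17:78819317-78819589 had 0.479, 0.233, 2.86 and 2.41 in the 4 libraries in the same order, then 5.12 with latrunculin A and 8.57 with MCSF. At both sites the 3 levels kept apart, with the resting libraries lowest, the IL-4 controls between and the treated libraries highest. The third site, chr10:11107740-11108430, had no read in Untreated and 2.27 in DMSO, 4.01 in IL-4 and 1.68 in DMSO + IL-4, and 6.15 with latrunculin A and 11.8 with MCSF, so its rise with IL-4 was not seen in the DMSO pair.

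The largest falls under IL-4 were at sites 5 and 4 above and at chr1:13258247-13259097. The latter had 3.35 in Untreated and 10.4 in DMSO, 2.03 in IL-4 and 0.241 in DMSO + IL-4, and 3.55 with latrunculin A and 8.35 with MCSF. Its DMSO + IL-4 value was 3 reads, which gave a latrunculin A read ratio of 14.8 (4.78 to 73.9), while LatA + IL-4 lay far below DMSO. The fall with IL-4 at that site was mainly in the DMSO pair.

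Sites on either side of the threshold differed by less than counting error. Just inside lay chr1:173001743-173003334, chr10:79689018-79689698 and chr1:93294755-93295707, with read ratios of 2.00 (1.82 to 2.20), 2.02 (1.55 to 2.64) and 2.04 (1.36 to 3.09) with latrunculin A. Just outside lay chr2:71710823-71711847, with 2.02 (1.49 to 2.76) with latrunculin A, chr1:173004367-173004659, also with 2.02 (1.49 to 2.76), and chr13:22112712-22113168, with 2.04 (1.35 to 3.13) with MCSF. The second of the latter lies between the near-equal neighbours on chromosome 1. With 0.1 added, each of these 6 ratios rounded to 2.00.

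Width was not used by the rule. The opened sites were 235 to 2802 bp wide, with a median of 719 bp (693 to 739), and other sites of equal signal had a median of 719 bp over all bins. Within bins of mean signal the medians differed in both directions, with 601 against 690 bp at 3.2 to 4, 817 against 747 bp at 6.4 to 8, 998 against 824 bp at 8 to 12.8 and 989 against 870 bp at 25.6 and over. Over all bins, 201 opened sites (19.9%, 17.5 to 22.5%) were at least 1000 bp, against 26.0% of other sites of equal signal, and 40 (3.96%, 2.84 to 5.35%) were at least 1500 bp, against 6.53%. Sites at least 2-fold higher with latrunculin A alone had a median width of 696 bp and those with MCSF alone 684 bp. The highest points of the peaks in LatA + IL-4 and MCSF + IL-4 were a median of 17.0 bp apart at the opened sites (15.0 to 20.0) and 16.0 bp apart at other sites of equal signal. They were within 100 bp at 842 of the 1011 sites (83.3%), against 82.3%, so the position of the peak was much alike in both treated libraries and no more so than elsewhere.

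Opened sites were found on each of the 19 chromosomes. The share of sites compared ran from 1.96% on chromosome 14 (1.31 to 2.80%) and 1.97% on chromosome 3 (1.40 to 2.68%) to 3.93% on chromosome 11 (3.08 to 4.92%) and 3.93% on chromosome 17 (3.02 to 5.02%). The window of 1 Mb with the most opened sites was on chromosome 1 from 173000000 to 173999999, with 9 of the 57 sites compared. It holds the near-equal neighbours, and the shares of nearby sites below are also given without it. The next was on chromosome 8 from 126000000 to 126999999, with 7 of 65, and 6 windows held 6 each, the first of them on chromosome 2 from 157000000 to 157999999 with 6 of 18. The sites in these 3 windows that were not opened sites also had ratios above the median of all sites, with median log2 ratios of 0.80, 0.93 and 0.72 under latrunculin A treatment and 0.77, 0.86 and 0.65 under MCSF. The windows were picked for sites past 2-fold on these same ratios, so raised ratios in them were favoured by the choice.

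Another opened site lay within 10 kb of 63 opened sites (6.23%, 4.82 to 7.90%), while 2.57% of other sites of equal signal had an opened site that near. Without the window on chromosome 1 the shares were 5.89% and 2.54%. When each library was scaled to its total reads, 23 of 697 such sites (3.30%, against 1.80% of other sites) lay that near each other, and with the scale set by reads outside the 20 top sites 6 of 378 did (1.59%, against 0.978%). The opened sites also lay closer to any site compared, with a median gap of 8584 bp (7454 to 9437) against 11525 bp. For 555 opened sites the nearest site compared was under 10 kb away, and its median log2 ratio was 0.72 (0.69 to 0.75) with latrunculin A and 0.74 (0.70 to 0.79) with MCSF. The nearest sites of other sites of equal signal had 0.59 and 0.61. Among neighbours that were not themselves opened sites the values were 0.70 and 0.71, against 0.58 and 0.59. Neighbouring sites were measured in the same libraries, and these intervals treat sites as if independent.

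**Figure D5:**
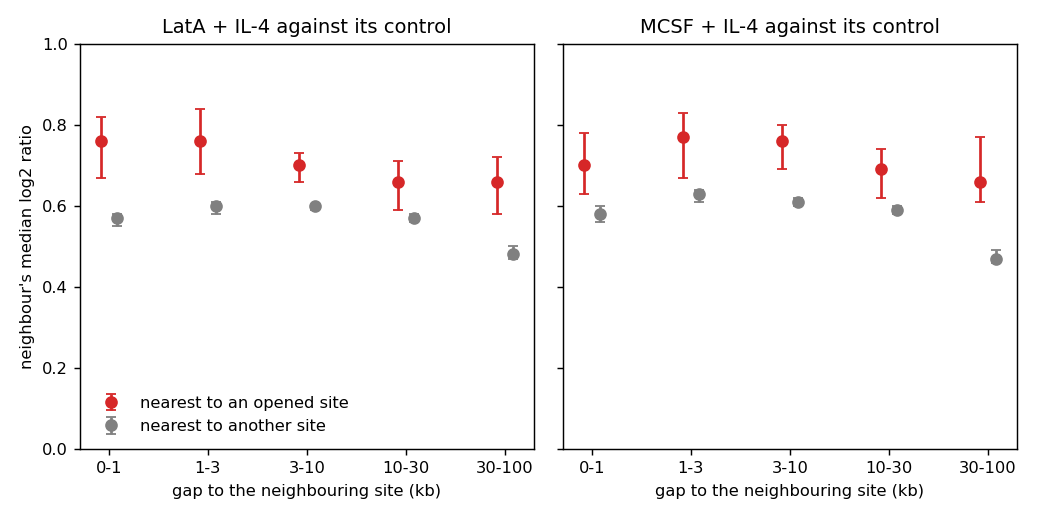
Median log2 ratio of the nearest site compared (y axis), by the gap to it in kb (x axis), for neighbours of opened sites (red) and of all other sites (grey, not weighted by signal), with order-statistic 95% intervals. The left panel is LatA + IL-4 against DMSO + IL-4, while the right panel is MCSF + IL-4 against IL-4. The panels leave out gaps of 100 kb and over, with 22 neighbours of opened sites (medians 0.48 and 0.47) and 2210 of other sites (0.19 and 0.12). In the 5 bins shown, red medians lie between 0.66 and 0.77 and grey medians between 0.47 and 0.63.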

How the data were processed

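ATAC-seq of 6 libraries was analysed from the deposited files. Per the study's methods, the authors trimmed paired-end reads with Cutadapt, aligned them to mm9 with Bowtie2, which could report several alignments per read, removed duplicates with Picard and called peaks per library with macs2 on shifted read ends. Tool versions and how sites were joined are not given in the sources used here.

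The deposited signal is CPM per site from featureCounts reads, which the authors scaled with TMM factors in edgeR. In each library 100% of values were whole reads, within 0.01, once divided by the value of 1 read. With 1 library per group there is no spread between replicates, and no site was tested. A count model that assumes additive IL-4 and vehicle effects was not fitted. The deposited fold enrichment ratio of each peak was used to compare peaks within and between libraries. The deposited −log10 q-value of the peaks was read but is not reported. No per-sample column was left out.

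Groups came from the labels. Ratios used the signal with 0.1 added. Intervals are exact (Clopper-Pearson) 95% intervals for ratios of reads and shares, and order-statistic 95% intervals for medians over sites. Those of read ratios cover counting error only, and reads, which carry no molecular identifiers and may be reported at several places, need not be independent. Those of shares and medians treat sites as independent and cover no difference between cultures. Other sites were weighted to the opened sites' shares of 7 bins of mean signal. The sites and all choices were made with earlier results of these data known. Named sites were the 8 with the largest smaller ratio, the 5 of highest mean signal, the 3 with the largest and 3 with the smallest mean IL-4 ratio, 3 on each side of the threshold and the 3 windows of 1 Mb with the most opened sites. Scripts were checked on simulated data. Python libraries numpy, pandas, scipy and matplotlib were used. The last site on chromosome 1 ends at 197195351, past the genes of the GRCm38 reference at hand, so genes, motifs and sequences at the sites are not analysed here.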

Additional observations from a re-analysis of the deposited data

Results flagged for a closer look

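The IL-4 ratio went opposite ways in the 2 pairs at a few opened sites. At 8 sites the signal was at least 2-fold higher with IL-4 without vehicle and at least 2-fold lower with it in DMSO, and at 1 site the reverse was found. Among all 33476 sites compared these patterns were found at 59 and 32. As a share of sites, the former was thus more frequent among the 1011 opened sites than among all sites compared. The latter, at 1 site, was about as rare in both. Both IL-4 libraries are denominators of the rule, so these shares are not free of it. The difference between the pairs was not tested, since each ratio compares 2 libraries. The 9 sites had a median mean signal of 4.31, and all opened sites 4.65.

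Sites on chromosomes X and Y were outside the comparisons. Of 1973 such sites with a mean signal of at least 3.2, 13 (0.659%, exact 95% interval 0.351 to 1.12%) met the same conditions, all of them on X. With latrunculin A 3.14% and with MCSF 4.16% of these sites were at least 2-fold higher, against 12.6% and 14.6% on chromosomes 1 to 19.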

How the results depend on the processing

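The number of opened sites depended on the scale, the added value and the thresholds. It was 378 when reads outside the 20 sites with the most reads set the scale, 318 with 1 added, 9397 at 1.5-fold, 45 at 3-fold, 2678 at a floor of 1.6, 230 at a floor of 6.4, 71 with the trend with mean signal removed and 533 against both IL-4 controls. Under the other 7 alternatives it stayed between 697 and 1139. Asking for a counting interval above 1 in both left it at 1011, which the choice of sites largely fixed. With the controls crossed it was 946, of which 533 were among the 1011.

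The median log2 ratio of IL-4 against Untreated stayed below 0 in all 15 alternatives. It was −0.23 with the scale outside the 20 top sites, −0.04 with 1 added, −0.02 at 1.5-fold, −0.44 at 3-fold, −0.07 at a floor of 1.6, −0.02 with the controls crossed and −0.31 with the trend removed. That of DMSO + IL-4 against DMSO was −0.25 with 1 added, −0.25 at 1.5-fold, −0.84 at 3-fold and −0.66 with the trend removed. That of DMSO against Untreated turned to −0.09 with the trend removed, which subtracts the shift of all sites. It was 0.25 with total reads as the scale, 0.27 with the scale outside the 20 top sites, 0.29 with 1 added, 0.16 at 3-fold and 0.40 with the controls crossed.

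The median width was 744 bp with the scale outside the 20 top sites, 778 with 1 added, 842 at 3-fold, 545 at a floor of 1.6 and 912 at a floor of 6.4. The percent of opened sites within 10 kb of another was 3.30 with total reads as the scale, 1.59 with the scale outside the 20 top sites, 3.46 with 1 added, 28.7 at 1.5-fold, 4.44 at 3-fold, 10.9 at a floor of 1.6, 8.14 with the controls crossed and 2.82 with the trend removed. With the trend removed this was 2 of 71 sites, against 0.139% of other sites of equal signal. With median-of-ratios size factors as the scale it was 6.24%, against 2.86%. Fewer opened sites leave fewer to be near. The cause of the other changes was not tested. The test against both controls and the one without a window were chosen after seeing the data. No paired analysis was possible because each group holds 1 library.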
